A study of Mus musculus with 21 samples.

Results

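High-dose interleukin-2 (IL-2) was compared with no cytokine in mouse CD8 T cells on day 5 of culture. All 3251 cells of the library given 50 IU/mL IL-2 and all 6112 cells of the library without exogenous cytokine were used, 9363 of the 106458 cells of the series. Both libraries were made from naive OT1 CD8 T cells, which carry a transgenic T cell receptor for an ovalbumin peptide, and in both the cells had been activated on day 0 with beads coated with antibodies to CD3 and CD28. By title and design text the cultures differed by the added IL-2. The series held 21 libraries of single-cell RNA, with naive cells on day 0, activated cells on days 3, 5 and 10, and IL-2, IL-15 or IL-2v (labelled as a mutant IL-2) at 5 or 50 IU/mL. Each condition had 1 library, and the labels do not say from how many animals or cultures it came. No difference below therefore has a replicate check, no test between conditions was possible, and every interval covers counting error alone. The treatment label of the IL-2 library names Interleukin-3 where its title and the design text give IL-2, and the title was followed. The extraction label speaks of sorted tumour-infiltrating CD8 cells, while the growth label describes culture.

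IL-2 binds a receptor made of an alpha chain (CD25, Il2ra), a beta chain and a gamma chain shared with other cytokines, and signals through JAK1 and JAK3 to STAT5 and through the PI3K and mTOR pathway. In activated CD8 T cells it is known as a growth and survival factor that favours glycolysis, protein and lipid synthesis, division and cytotoxic effector differentiation, and it raises its own alpha chain. Without it, activated T cells stop dividing and keep or regain features of quiescent cells.

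The IL-2 library had the fewest cells and the fewest unique molecular identifiers (UMIs, tags that each mark a captured RNA molecule) of the 21 libraries, 10590998 against 25673180 without cytokine. Median depth was 3016 UMIs and 1271 genes per cell with IL-2 and 3751 UMIs and 1407 genes without. Mitochondrial genes took 2.91% of UMIs with IL-2 and 3.86% without, and the nuclear RNA Malat1 took 1.33% and 2.66%. The summed level of 7 T cell markers was 3341 with IL-2 in CPM (UMIs of a gene scaled to the same total in every library) and 6023 without, and all 7 were measured in both. Of 5 B cell markers 3 were at 0 in each library, among them Ms4a1 and Pax5. Of 7 myeloid markers 3 were at 0 in each, Lyz2, Csf1r and Adgre1. Cells with at least 2 markers of other lineages, or with Cd4 and neither Cd8a nor Cd8b1, numbered 154 with IL-2 (4.74%) and 448 without (7.33%). The B cell list summed to 7.65 and 9.89 CPM, the myeloid list to 130 and 93.7 CPM (mostly Cst3) and the natural killer list to 533 and 610 CPM (mostly Nkg7), with and without IL-2. The list of CD4 and regulatory T cell markers summed to 30.1 and 8.41 CPM. Zbtb7b was its 1 member to reach 20 CPM in either library, and Foxp3 was at 0 in both. The libraries shared 6 cell barcodes, against a median of 7 over the 210 pairs of libraries. The part of depth and RNA quality in the differences below was not tested. When only cells with at most 5% mitochondrial UMIs were used, 976 genes were higher and 491 lower, against 992 and 455 over all cells. Without the cells with markers of other lineages the counts were 996 and 470.

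Expression differed broadly between the libraries. UMIs were summed over the cells of a library and scaled to CPM, and a gene was tested for size when it reached 20 CPM in either library. Differences are given between log2(CPM + 1) values, which understates the change of low genes. Of 6022 such genes, 992 (16.5%) were at least 2-fold higher with IL-2 and 455 (7.56%) at least 2-fold lower, so 24% differed by that much in either direction. At least 4-fold differences numbered 345 higher and 71 lower, and at least 8-fold differences 129 and 19. The median log2 difference of all tested genes was 0.11. The split depended on scaling: with trimmed means of M values (TMM), which moved the median by -0.15, it was 816 higher and 663 lower. Scaled to totals without ribosomal protein and mitochondrial genes, which moved the median by -0.10, it was 1075 and 736. That scaling also brought the genes tested to 7374. At the limit of 2-fold, Rpn2 lay just inside (117 against 58.1 CPM) and Rcn3 just outside (31.7 against 15.4 CPM). Among the lower genes, Irf1 lay just inside (93.0 against 187 CPM) and Scand1 just outside (126 against 254 CPM).

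**Figure D1:**
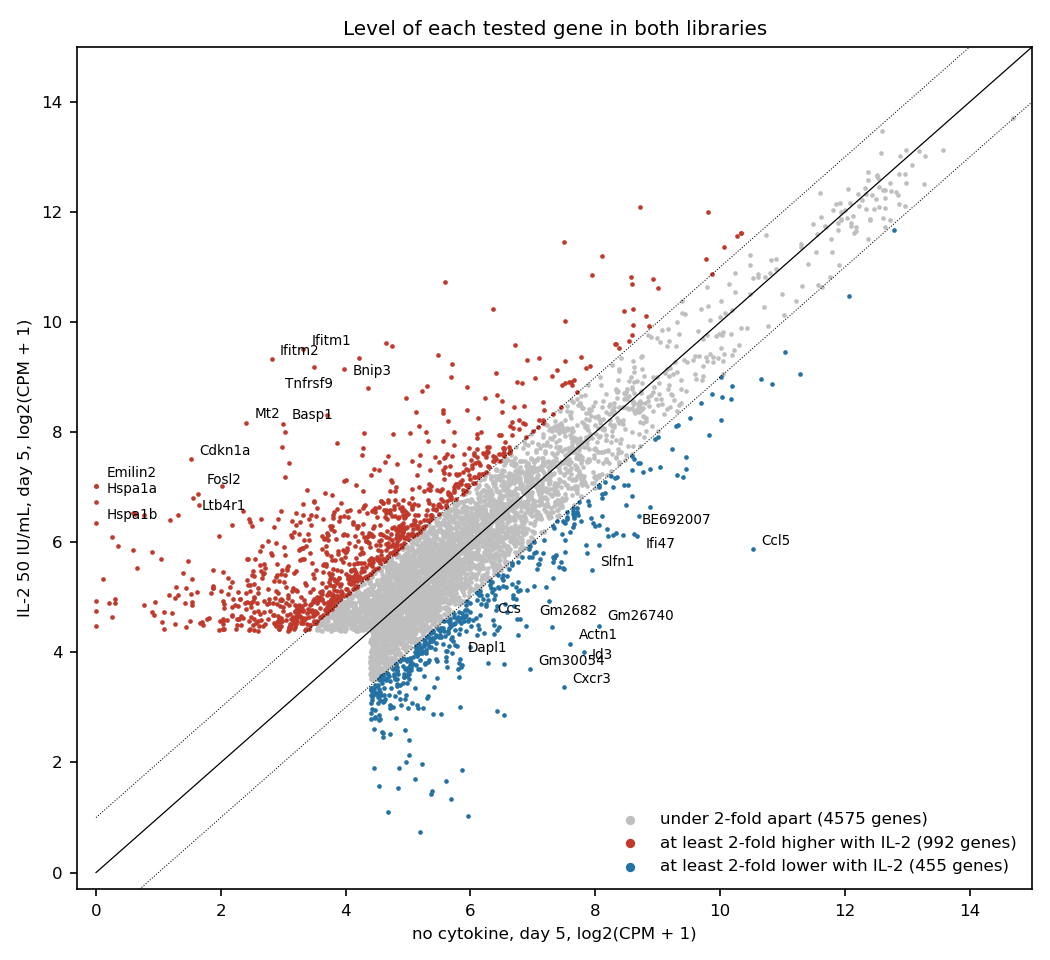
Level of each of the 6022 tested genes without cytokine (x axis) and with 50 IU/mL IL-2 (y axis) on day 5, both as log2(CPM + 1), 1 point per gene; the solid line marks equal levels and the dotted lines 2-fold differences. The 992 higher genes (red) spread farther from the line than the 455 lower genes (blue), and the 24 labelled genes are the 12 highest and the 12 lowest by difference among genes of at least 100 CPM in the higher library.

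The genes farthest above the line included some with no UMI without cytokine. Emilin2, which encodes an extracellular matrix glycoprotein (chr17:71252172-71311978, minus strand, mm10), had 129 CPM with IL-2 (95% Poisson interval 123 to 136) and 0 without, at least 1108-fold higher against a limit of 3 UMIs in the library at 0. After every cell was thinned to 2000 UMIs, 21.04% of IL-2 cells and 0% of cells without cytokine had an Emilin2 UMI. Cdkn1a, the CDK inhibitor p21, stood at 181 CPM with IL-2 and 1.87 without. The interferon-induced membrane proteins Ifitm1 (730.1 against 8.96 CPM) and Ifitm2 (641 against 6.04 CPM) were also among the 12, and so were the metallothionein Mt2 (288 against 4.28 CPM) and the costimulatory receptor Tnfrsf9 (4-1BB, 582 against 10.3 CPM). The group was completed by the leukotriene B4 receptor Ltb4r1 (112 against 1.95 CPM), the AP-1 protein Fosl2 (117 against 2.10 CPM), the mitophagy receptor Bnip3 (568 against 14.8 CPM), the membrane-associated protein Basp1 (284 against 7.01 CPM) and the heat shock genes Hspa1a and Hspa1b. More than 50% of the 31-base stretches of Ifitm2, Hspa1a and Hspa1b occur in other genes too, so the share of reads that belongs to each is uncertain. Of the exonic bases of Mt2, 73.5% overlap a gene on the opposite strand.

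The 12 lowest genes were of several kinds, and 4 of them were transcripts of unknown function. Ccl5, a chemokine of memory and effector T cells (chr11:83525778-83530518, minus strand), stood at 57.9 CPM with IL-2 and 1482 without, 25.6-fold lower. A Ccl5 UMI was found in 4.97% of thinned IL-2 cells and in 44.4% of those without cytokine. The chemokine receptor Cxcr3 (9.35 against 181 CPM) and Id3, an inhibitor of E proteins found in naive and memory T cells (15.0 against 224 CPM), followed. Actn1, an actin crosslinker, had 16.9 against 193 CPM, the interferon-induced GTPase Ifi47 68.7 against 408 CPM, Slfn1, which is linked to T cell quiescence, 44.2 against 245 CPM, Dapl1 18.9 against 107 CPM and Ccs, the copper chaperone of superoxide dismutase, 21.4 against 118 CPM. The remaining 4 of the 12 lowest were Gm26740, Gm30054, Gm2682 and BE692007, at 21.2, 11.99, 20.96 and 69.7 CPM with IL-2 and 267, 123, 157 and 391 CPM without. Gm30054 overlaps a gene on the opposite strand over 82.9% of its exonic bases, so the origin of its reads is uncertain.

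The receptor of the added cytokine was itself higher. Il2ra was at 330.3 CPM with IL-2 (interval 319 to 341) and 34.0 without, a log2 difference of 3.24, and was detected in 42.6% of thinned cells against 6.33%. Il2rb, the beta chain, had 374 and 142 CPM (1.39 on the log2 scale). Il2rg, the common gamma chain, went the other way without reaching 2-fold, at 195 and 386 CPM. Of the 8 tested genes of the receptor and its JAK-STAT pathway, Il2ra and Il2rb passed 2-fold, beside 16.5% higher among all genes. Under TMM and 3 other alternatives 1 member was lower. Stat5a (19.2 against 23.0 CPM) and Stat5b (59.96 against 36.8 CPM), which encode the main transcription factors of the receptor, did not. Among 7 tested inhibitors of cytokine signalling, Cish (97.3 against 10.7 CPM) and Socs2 (91.7 against 8.26 CPM), both known targets of STAT5, were higher, and Socs1 (109 against 149 CPM) and Socs3 (16.2 against 24.2 CPM) were within 2-fold. The Cish promoter is shown because STAT5 is known to bind the paired sites that it holds. Capitals mark TTCNNNGAA, searched on both strands, in 110 bases from 80 before to 30 after the RefSeq start site (GRCm38.p6, chr9:107296579-107296688, plus strand).
Cish: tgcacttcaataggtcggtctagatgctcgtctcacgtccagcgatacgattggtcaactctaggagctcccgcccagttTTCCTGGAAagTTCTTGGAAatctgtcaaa
The 2 matches lie side by side. This motif was no commoner among the higher genes: 5.87% of the 783 higher genes with a promoter in the RefSeq table held it within 250 bases before and 50 after the start, against 8.94% of 358 lower genes and 6.71% of all 4842 tested genes with a promoter. A match is a run of letters and not evidence of binding.

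Receptors for other cytokines split, with 4 of 15 tested genes higher and 3 lower, beside 16.5% and 7.56% of all genes. Il12rb2 (175 against 23.8 CPM) and Il12rb1 (30.2 against 5.84 CPM), the chains of the IL-12 receptor, and Il18r1 (94.99 against 25.2 CPM) and Il18rap (57.1 against 8.57 CPM), those of the IL-18 receptor, were higher. Il7r, the receptor chain for the survival cytokine of naive and memory cells, was at 159 CPM with IL-2 and 700.0 without, and Il27ra (23.0 against 81.4 CPM) and Il15ra (7.74 against 20.4 CPM) were lower too. The median of the 15 tested members was 0.01, and it changed sign under TMM. Downstream growth regulators were higher: the kinases Pim1 (330.1 against 89.5 CPM) and Pim2 (227 against 46.4 CPM) and the transcription factor Myc (150.6 against 55.1 CPM). Mxd4, an antagonist of MYC, was lower (90.4 against 199.98 CPM). In the list of PIM, MYC and partners 4 of 7 tested genes were higher and 1 lower, beside 16.5% and 7.56% of all genes.

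Several transcription factors of quiescent T cells were lower and several of effector T cells higher. Of 12 tested factors linked to quiescence and stemness, 5 were lower, 1 was higher and 6 were within 2-fold, with a median log2 difference of -0.72, beside 7.56% lower and 16.5% higher among all tested genes. Tcf7, which encodes TCF-1, stood at 69.5 CPM with IL-2 and 348 without. Klf2, which maintains expression of homing receptors, stood at 99.0 and 471 CPM. Klf3 (16.1 against 40.3 CPM), Foxp1 (240 against 514 CPM) and Id3 were the other lower members, and Klf7 (89.0 against 40.4 CPM) the higher one, though under TMM and with a pseudocount of 10 CPM 0 members were higher. Lef1, the partner of TCF-1, was at 171.2 and 331 CPM, just short of 2-fold. Of 16 tested effector factors, 8 were higher, 1 lower and 7 within 2-fold, with a median of 0.97. Bhlhe40, a repressor induced by activation, had 318 CPM with IL-2 and 11.997 without. Nfil3 (89.5 against 8.92 CPM), Zbtb32 (42.9 against 3.12 CPM), Prdm1, which encodes BLIMP-1 (38.7 against 4.32 CPM), Irf8 (95.5 against 20.6 CPM), Irf4 (42.8 against 12.3 CPM), Eomes (30.4 against 10.3 CPM) and Maf (20.4 against 9.62 CPM) were the other higher members. Tox, a factor of chronically stimulated cells, was lower at 11.1 against 27.6 CPM. Tbx21, which encodes T-bet, stayed under the 20 CPM limit in both libraries (12.3 and 13.01 CPM).

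Several cytotoxic genes were higher with IL-2. Gzmb, the serine protease granzyme B (chr14:56258838-56262260, minus strand), was at 1689 CPM with IL-2 and 47.2 without. A Gzmb UMI was present in 89.6% of thinned IL-2 cells (95% Clopper-Pearson interval 88.4% to 90.7%) and in 4.46% of cells without cytokine (3.96% to 5.02%). Before thinning the shares were 91.7% and 8.43%. In naive cells, which should lack granzyme B and had a median of 3799 UMIs per cell, the thinned share was 0.649%. Gzmc (129 against 3.04 CPM), Gzma (160.1 against 20.99 CPM), Fasl, the ligand of the death receptor Fas (25.8 against 5.45 CPM), and the pore-forming protein gene Prf1 (23.6 against 8.998 CPM) were higher as well. So were Serpinb9 (77.8 against 17.2 CPM), which inhibits granzyme B, and Serpinb6b (252 against 18.7 CPM). Altogether 7 of 13 tested members were higher, 0 lower and 6 within 2-fold, beside 16.5% higher among all genes. Their median of 1.30 was 0.66 with totals without ribosomal protein and mitochondrial genes, where 14 were tested, and 0.82 with a pseudocount of 10 CPM. The granule genes Nkg7 (530 against 609 CPM) and Srgn (513 against 509 CPM) were at like levels in both libraries.

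Secreted factors did not follow the granule genes. Of 7 tested cytokines and chemokines, 2 were higher and 4 lower, beside 16.5% and 7.56% of all genes. Besides Ccl5 the lower genes were Xcl1, the chemokine that attracts cross-presenting dendritic cells (1.51 against 50.9 CPM), Ltb, which encodes lymphotoxin beta (470.5 against 1820.1 CPM), and Ccl4 (13.6 against 35.6 CPM). Tnf (22.3 against 6.23 CPM) and Lta (34.5 against 10.1 CPM) were higher, and Ifng was under the limit in both libraries (1.23 and 3.39 CPM).

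Of 10 tested costimulatory and death receptors 5 were higher, 1 was lower and 4 were within 2-fold, beside 16.5% higher and 7.56% lower among all genes, and the higher count was 3 under TMM and with a pseudocount of 10 CPM. Tnfrsf9 had 582 CPM with IL-2 and 10.3 without and was detected in 61.0% and 1.25% of thinned cells. Tnfrsf4 (OX40) had 172 against 7.52 CPM, Tnfrsf18 (GITR) 477 against 112 CPM and Tnfrsf1b 39.8 against 17.9 CPM. Cd28 was at 273 and 134 CPM. Cd27, carried by naive and memory cells, was lower at 102 against 359 CPM. Of the inhibitory receptors, Ctla4 (465 against 198 CPM) and Entpd1 (CD39, 31.3 against 4.79 CPM) were higher, Cd160 (23.9 against 55.0 CPM) and Cd200 (8.31 against 20.8 CPM) lower, and Lag3 (72.0 against 38.8 CPM) short of 2-fold. With a pseudocount of 10 CPM 2 of the 7 tested were higher and 0 lower. Pdcd1, which encodes PD-1, was below the limit at 8.69 and 5.61 CPM.

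Homing receptors split, with 6 of 20 tested genes higher and 5 lower, beside 16.5% and 7.56% of all tested genes. S1pr1, which guides exit from lymph nodes, was at 79.1 CPM with IL-2 and 265 without. The integrin chains Itga4 (23.5 against 106 CPM) and Itgae (1.79 against 40.9 CPM) and the receptor Cxcr3 were also among the lower members. Cxcr4 (35.2 against 1.71 CPM), Itgb3 (104 against 14.3 CPM), the activation marker Cd44 (92.0 against 24.1 CPM) and Ccr2 (64.1 against 19.0 CPM) were higher. Ccr7 fell short of 2-fold, at 149 and 267 CPM. The coreceptor genes of the T cell receptor were lower: Cd8b1 (298 against 1033 CPM) and Cd8a (160 against 470 CPM), together with the negative regulator Cd5 (55.8 against 132 CPM). These were 3 of 20 tested genes of the receptor complex, beside 7.56% of all genes, and the other 17 were within 2-fold, among them Trac (307 against 324 CPM). The S100, galectin and annexin list, whose members accumulate in effector and memory cells, had 7 of 15 tested genes higher and 0 lower, with a median of 0.85. In cells with a Mki67 or Top2a UMI 5 of 16 were higher and the median was 0.33. The list was led by Lgals3 (448 against 19.5 CPM), Anxa2 (677 against 43.9 CPM) and the intermediate filament gene Vim (2368 against 274 CPM).

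Both survival and death regulators were among the higher genes of the BCL2 family. Bcl2, which blocks apoptosis, was at 449 CPM with IL-2 and 60.8 without, and Bcl2l1, which encodes BCL-XL, at 28.4 and 5.65 CPM. Bcl2l11, which encodes the killer protein BIM, was at 229 and 38.8 CPM, Pmaip1 (NOXA) at 20.6 and 4.56 CPM and Bbc3 (PUMA) at 119 and 49.0 CPM. Mcl1, another protector, was at 148 and 290.3 CPM, short of 2-fold. Of 10 tested members 5 were higher and 0 lower, beside 16.5% and 7.56% of all genes. Under TMM 4 of 9 were higher and 2 lower, and with totals without ribosomal protein and mitochondrial genes 5 and 2. Of the 11 tested genes of the list of p53 targets, which does not hold Cdkn1a, 2 were higher, beside 16.5% of all tested genes, and the median was -0.13. The 2 were Ccng1 (89.8 against 40.2 CPM) and the polymerase gene Polk (41.2 against 16.8 CPM). Aen, an exonuclease gene, was lower (9.54 against 21.7 CPM). The sign of that median changed among cycling cells. With a pseudocount of 10 CPM 0 of the 11 were higher and 0 lower, and under TMM 1 was higher.

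**Figure D2:**
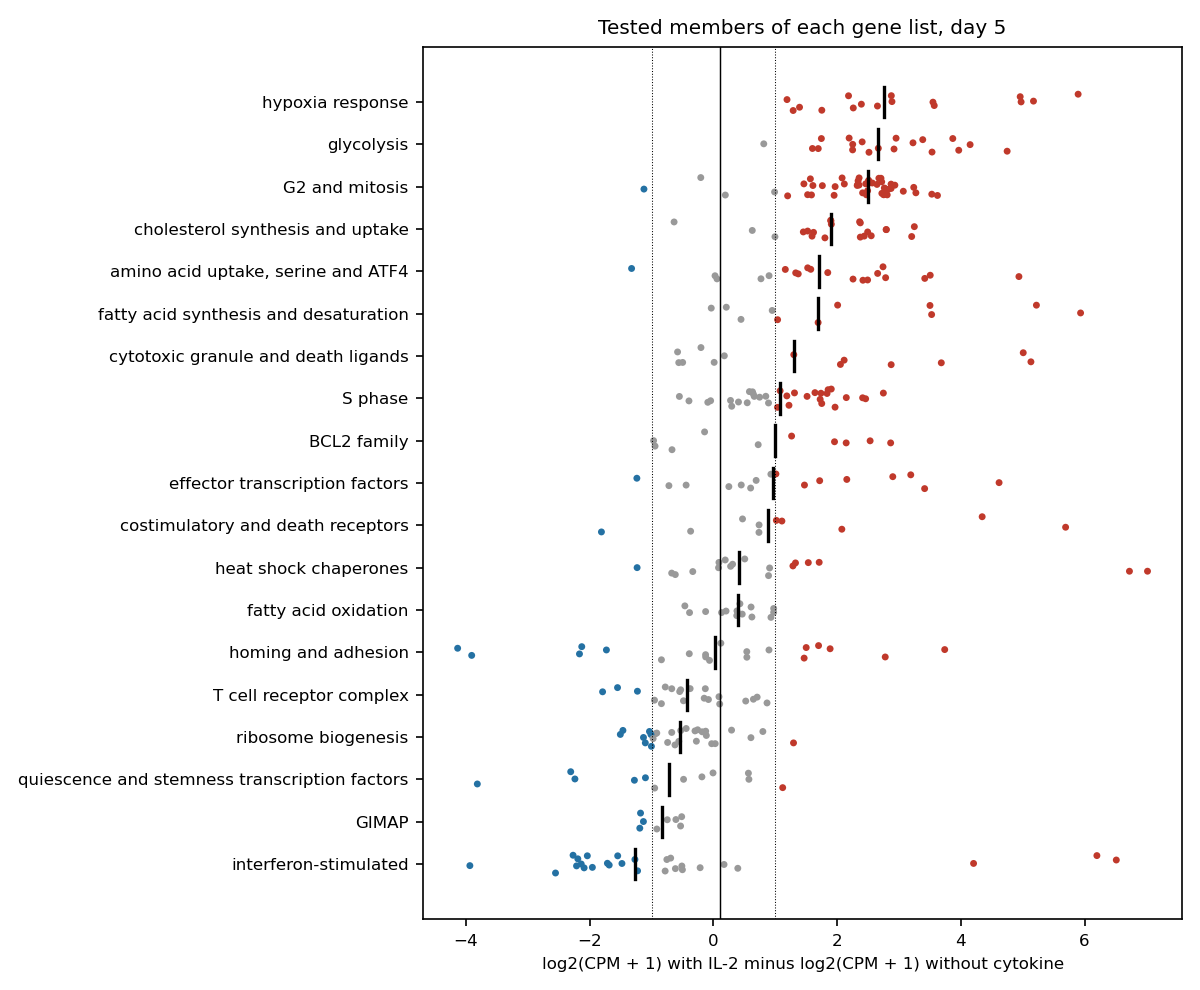
Log2 difference (IL-2 minus no cytokine, day 5) of the tested members of 19 gene lists, 1 point per gene, red when at least 2-fold higher and blue when at least 2-fold lower; short bars mark list medians, the solid vertical line the median of all tested genes and dotted lines 2-fold. All 16 hypoxia response genes and 18 of 19 glycolysis genes lie to the right of the 2-fold line, while the stemness, GIMAP and interferon-stimulated lists have medians of -0.72, -0.83 and -1.27.

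Glycolysis, which turns glucose into pyruvate and lactate, was higher nearly throughout. Of 19 tested glycolysis genes, 18 were higher and 0 lower, with a median log2 difference of 2.67, against 16.5% higher among all genes. Transport was represented by the glucose transporters Slc2a3 (455 against 38.4 CPM) and Slc2a1 (77.7 against 12.8 CPM) and by the lactate exporter Slc16a3 (145 against 7.21 CPM). The kinase Hk2, which traps glucose, had 118 against 11.8 CPM. Further down the pathway Aldoa stood at 4381 CPM with IL-2 and 419 without, its paralogue Aldoc at 211 and 6.89 CPM, Tpi1 at 1206 and 81.6 CPM, Gapdh at 4096 and 895 CPM, Pkm at 1861 and 245 CPM and Ldha at 1807 and 379 CPM. Pgk1 was at 2819.9 and 179.6 CPM, though it shares 54.7% of its 31-base stretches with other genes. Slc16a1, the other lactate transporter, was the single tested member short of 2-fold (26.4 against 14.6 CPM). The 83 tested nuclear genes of oxidative phosphorylation had 2 higher, 4 lower and a median of -0.16, and of 14 tested fatty acid oxidation genes 0 passed 2-fold, with Cpt1a, which controls fatty acid entry into mitochondria, at 24.0 and 15.2 CPM.

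The shift in glycolytic transcripts was present in nearly every cell. After thinning to 2000 UMIs, IL-2 cells held a median of 40 UMIs of the glycolysis list (10th to 90th percentile 28 to 54) and cells without cytokine 5 (2 to 10). Of the 2857 IL-2 cells deep enough to thin, 99.86% exceeded 11 UMIs, the 95th percentile without cytokine. Thinning left out 394 IL-2 cells and 109 cells without cytokine. The 2 distributions barely met, whereas those of the interferon-stimulated list, with medians of 5 and 7, overlapped over most of their range. That list sums 15 lower and 3 higher members (Ifitm1, Ifitm2 and Ifitm3), so its UMIs per cell mix opposite changes.

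**Figure D3:**
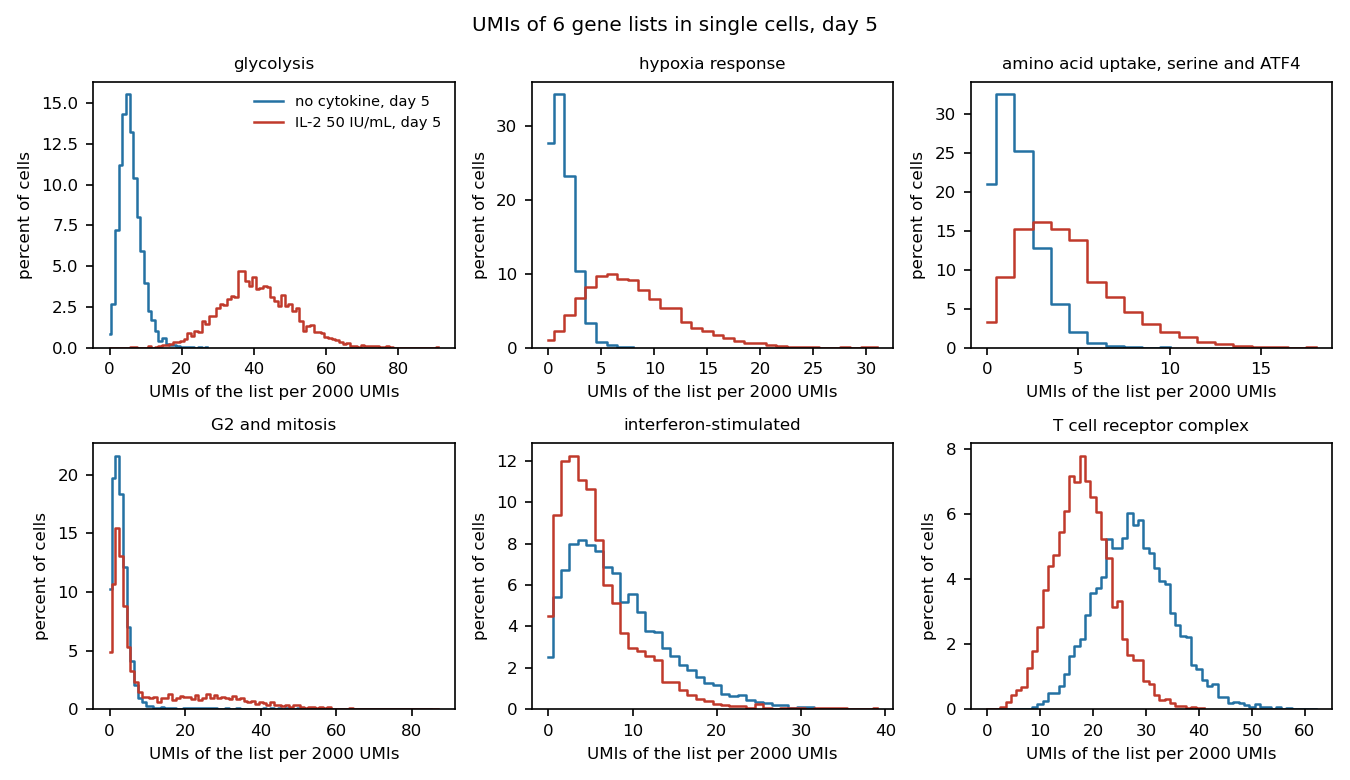
Distribution over single cells of the UMIs of 6 gene lists after thinning each cell to 2000 UMIs (x axis, UMIs of the list; y axis, percent of cells), with IL-2 in red and without cytokine in blue. Glycolysis separates nearly all cells (medians 40 and 5), hypoxia response and amino acid lists shift as a whole, and the G2 and mitosis list gains a long right tail with IL-2 (75th percentile 19 against 4).

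Genes of the hypoxia response, most of them known targets of HIF-1, were higher without exception. Of 16 tested members 16 passed 2-fold, with a median of 2.76, beside 16.5% higher among all genes. P4ha2, a collagen prolyl hydroxylase, was at 90.9 CPM with IL-2 and 0.545 without, Ndrg1 at 254 and 7.13 CPM, the oxidoreductase gene Ero1l at 782 and 24.2 CPM, and the growth factor gene Vegfa at 32.6 and 1.87 CPM. Egln3, the prolyl hydroxylase that marks HIF for destruction, was at 122 and 9.39 CPM. Kdm3a, a histone demethylase, had the smallest difference of the list (65.3 against 28.1 CPM). Hif1a itself, which is not in the hypoxia list, was at 353 and 218 CPM. Per 2000 UMIs the median was 7 UMIs of the list in IL-2 cells and 1 in the others, and 85.7% of IL-2 cells lay above 3, the 95th percentile without cytokine. The core of the HIF binding site, ACGTG, was found on either strand in the promoters of 8 of 13 hypoxia genes (61.5%) and 10 of 18 glycolysis genes (55.6%) with a RefSeq promoter, against 28.1% of all 4842. It was present in 31.7% of promoters of higher genes and 18.4% of lower genes. The motif shares of lists, here and below, follow from the choice of members and not from the direction of their differences. They are not evidence of binding. Bnip3 and P4ha2, which had the largest differences of the list, are shown with the motif in capitals. The Bnip3 stretch runs from 150 to 21 bases before the start (chr7:138909527-138909656, minus strand), and its 2 matches, 1 on each strand, overlap. The P4ha2 stretch covers the 110 bases before the start (chr11:54100814-54100923, plus strand) and holds 1 match.
Bnip3: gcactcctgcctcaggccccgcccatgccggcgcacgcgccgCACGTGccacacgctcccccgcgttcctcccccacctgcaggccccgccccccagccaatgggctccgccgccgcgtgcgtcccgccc
P4ha2: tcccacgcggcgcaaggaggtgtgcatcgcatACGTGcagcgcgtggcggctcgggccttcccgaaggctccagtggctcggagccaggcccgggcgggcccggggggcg

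Lipid synthesis genes were higher too. Of 21 tested genes of cholesterol synthesis and uptake 18 were higher and 0 lower, beside 16.5% and 7.56% of all genes. Their median was 1.91. Hmgcs1, an early enzyme of the pathway, was at 159 CPM with IL-2 and 22.1 without, and Fdps, which makes farnesyl diphosphate, at 248 and 26.1 CPM. Ebp was the member farthest the other way (45.1 against 70.7 CPM) and stayed within 2-fold. CCAAT, the letters bound by NF-Y, was found in 13 of 14 promoters of the cholesterol list (92.9%) against 39.3% of all promoters of tested genes. Of 11 tested genes of fatty acid synthesis and desaturation 7 were higher and 0 lower, with a median of 1.69. In cells with neither a Mki67 nor a Top2a UMI 4 of 9 were higher, beside 13.7% of all genes there. The median in those cells was 0.95. The desaturase genes stood out: Scd1 (chr19:44394455-44407879, minus strand) was at 91.1 CPM with IL-2 and 0.506 without, Scd2 at 602 and 51.3 CPM and Fads2 at 39.2 and 0.0779 CPM, the latter from 2 UMIs. Fasn, the fatty acid synthase, was within 2-fold at 27.004 and 19.6 CPM.

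Amino acid uptake, serine synthesis and other targets of the stress factor ATF4 were higher in 15 of 20 tested genes and lower in 1. Their median was 1.71, and of all genes 16.5% were higher and 7.56% lower. Slc7a5, the large neutral amino acid transporter, was at 76.2 and 6.23 CPM, and its partner Slc3a2 at 173 and 66.3 CPM. Asns, the asparagine synthetase, was at 84.6 and 6.54 CPM, Psat1 of serine synthesis at 93.2 and 13.1 CPM, and Atf4 itself at 325 and 46.4 CPM. Ddit3 (CHOP) had 178 against 32.5 CPM and Trib3 82.1 against 16.4 CPM. Nupr1, a stress-induced regulator, had 29.6 CPM with IL-2 and 0 without, at least 254-fold higher against the same limit of 3 UMIs. Psph, the last enzyme of serine synthesis, was the lower member (22.1 against 56.8 CPM). The letters TGATGNAA, a core of ATF4 sites, were in 4 of 17 promoters of this list (23.5%) and in 2.07% of all promoters of tested genes. Xbp1, of the unfolded protein response, was at 105 and 24.5 CPM. The median of its 16 tested list members was 0.64, and with totals without ribosomal protein and mitochondrial genes, where 19 members were tested, it was -0.085.

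Ribosome biogenesis genes did not share in this increase. Of 28 tested members 7 were lower and 1 higher, beside 7.56% and 16.5% of all genes, with a median of -0.54. The number lower was 3 without the cells that had an Hspa1a or Hspa1b UMI, 1 with a pseudocount of 10 CPM, 10 under TMM and 11 of 31 with totals without ribosomal protein and mitochondrial genes. Without the cells that had an Hspa1a or Hspa1b UMI the median was -0.48. Nolc1, a nucleolar assembly factor, was at 17.6 CPM with IL-2 and 51.6 without, Bop1 at 6.80 and 20.5 CPM, the helicase gene Ddx21 at 131.4 and 265 CPM and Gnl3 at 33.9 and 70.4 CPM. Npm1, which encodes nucleophosmin, was the higher member (2638 against 1075 CPM). The summed level of the list, Npm1 included, was 4603 CPM with IL-2 and 3159 without, opposite in direction to the median. Among the 80 tested cytosolic ribosomal protein genes 0 were higher and 1 was lower, or 4 under TMM.

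The share of cells with proliferation transcripts was higher with IL-2. Cells with a UMI of the proliferation genes Mki67 or Top2a made up 48.1% of thinned IL-2 cells (46.2% to 49.9%, 1374 of 2857) and 8.31% of thinned cells without cytokine (7.63% to 9.04%, 499 of 6003). Unthinned, the shares were 50.4% and 13.8%. With at least 3 UMIs of the G2 and mitosis list as the rule they were 69.0% and 48.3%, and Hmgb2 and Smc4 held 55.4% of the UMIs of that list without cytokine and 27.4% with IL-2. In naive cells the thinned share was 1.61%. Free RNA from dividing cells can place such UMIs in others, and its part was not tested. Mki67 was at 430.0 and 36.3 CPM and Top2a at 765 and 104 CPM. Of 47 tested genes of G2 and mitosis 43 were higher and 1 lower, beside 16.5% and 7.56% of all genes. Their median was 2.49, or 3.80 without cells over 2 times the median UMIs. Of 33 tested S phase genes 18 were higher and 0 lower. The higher genes of the 2 lists included Bub1, of the spindle checkpoint (44.4 against 2.69 CPM), the spindle motor Kif11 (107 against 10.2 CPM) and Hmmr (105 against 10.2 CPM). The mitotic cyclin Ccnb2 (97.4 against 18.5 CPM) and the DNA clamp Pcna (170 against 58.9 CPM) were others. Pttg1, which encodes securin, was the lower member of the G2 and mitosis list (22.4 against 49.9 CPM), and Smc4 (422 against 486 CPM) was level. Promoters of the G2 and mitosis list held TTTGAA in 31 of 40 genes (77.5%, against 12.4% of all) and CCAAT in 32 of 40 (80%, against 39.3%). The Ccnb2 promoter shows the usual layout of such genes, with 3 CCAAT boxes upstream of TTTGAA, all in capitals, from 100 before to 30 after the start (chr9:70421525-70421654, minus strand).
Ccnb2: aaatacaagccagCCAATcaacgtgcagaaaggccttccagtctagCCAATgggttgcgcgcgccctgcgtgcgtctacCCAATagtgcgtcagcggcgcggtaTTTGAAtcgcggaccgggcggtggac

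Many of these differences were also present when cells were split by whether they had a Mki67 or Top2a UMI. Among cells without a Mki67 or Top2a UMI (1613 with IL-2 and 5266 without), 799 of 5832 tested genes (13.7%) were higher and 524 (8.98%) lower, and among cells with one (1638 and 846), 943 of 6102 (15.5%) and 425 (6.96%). Of the 992 genes higher over all cells, 740 (74.6%) were higher in the cells without such a UMI and 824 (83.1%) in those with one. Of the 455 lower genes, 400 (87.9%) and 366 (80.4%) were lower. Glycolysis had a median of 2.56 in the cells without a UMI and 2.76 in those with one, with 18 of 19 tested genes higher in each. The S phase list fell to 4 of 19 higher and a median of 0.04 in the cells without a UMI, and to 10 of 43 and 0.52 in those with one. In the G2 and mitosis list 31 of 50 tested genes were higher in cells with a UMI, with a median of 1.14, and in those without 6 of 11 were higher and 2 lower, with a median of 1.04. Gzmb differed by 5.71 on the log2 scale in cells without a UMI and by 3.90 in those with one, and Ccl5 by -3.99 and -5.58. The classes rest on detection of the transcripts, so some dividing cells of low depth are among the others. They were not matched in division state, since G2 and mitosis genes still differed within both. Without cytokine 13.8% of cells had such a UMI before thinning and 8.31% after, against 50.4% and 48.1% with IL-2. Either way, 22.7% of genes in the cells without a UMI and 22.4% in those with one passed 2-fold.

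**Figure D4:**
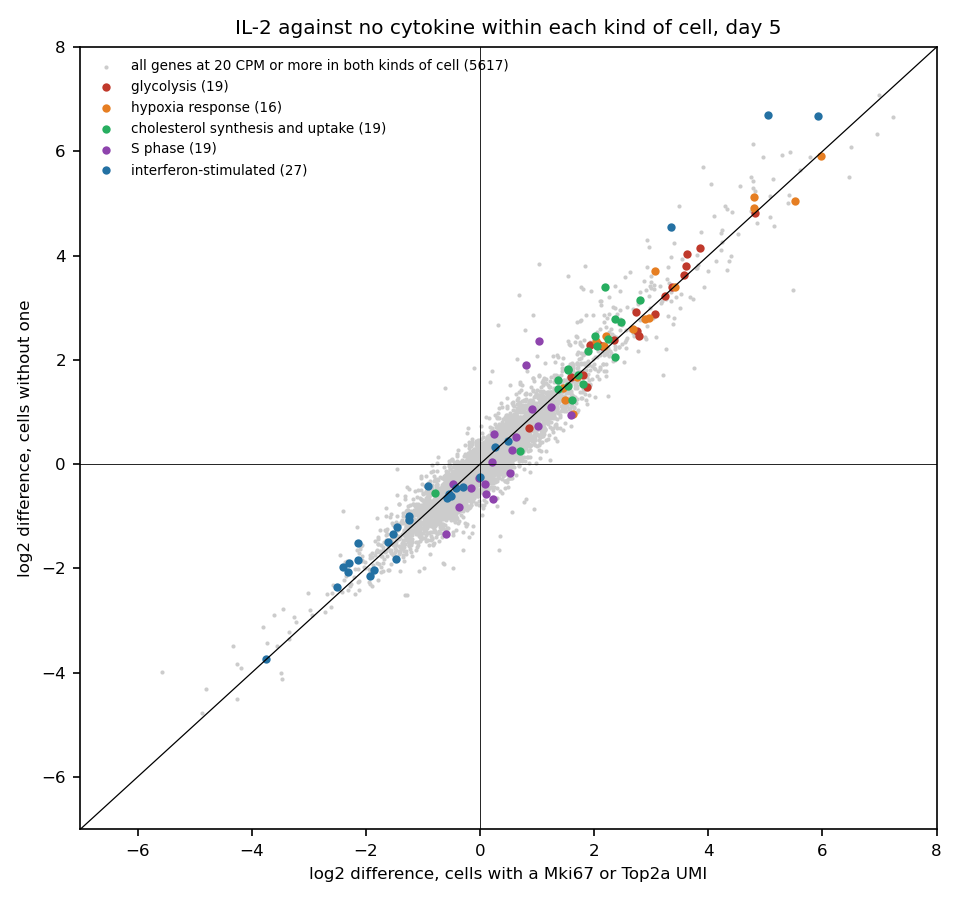
Log2 difference (IL-2 minus no cytokine, day 5) among cells with a Mki67 or Top2a UMI (x axis) and among cells without one (y axis), for 5617 genes at 20 CPM or more in both kinds of cell (grey) and members of 5 lists (colours); the diagonal marks equal differences. Glycolysis and hypoxia genes lie near the diagonal on the upper right and interferon-stimulated genes mostly on the lower left, while S phase genes gather near 0. The S phase medians were 0.52 over the 43 genes tested in cells with a UMI and 0.04 over the 19 in the others. Not all of these genes are plotted.

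Many interferon-stimulated genes were lower. Of 27 tested members 15 were lower, 3 higher and 9 within 2-fold, with a median of -1.27, against 7.56% lower among all genes. Rtp4 was at 1.70 CPM with IL-2 and 40.3 without, Ifi27l2a at 145 and 675 CPM, the GTPase gene Gbp9 at 10.8 and 55.7 CPM, and the ubiquitin-like modifier Isg15 at 8.03 and 38.7 CPM. The transcription factor Irf7 (9.35 against 41.5 CPM), which amplifies interferon responses, was lower too. The 3 higher members were Ifitm1, Ifitm2 and Ifitm3 (93.6 against 4.13 CPM). Of 10 class I antigen presentation genes 1 was lower, the immunoproteasome gene Psmb10 (77.7 against 255 CPM), a share near the 7.56% of all genes, and B2m was at like levels (3127 and 3014 CPM). All 8 GIMAP genes, GTPases of lymphocyte survival, had negative differences, of which 3 passed 2-fold, beside 7.56% of all genes. In cells with neither a Mki67 nor a Top2a UMI 0 did, beside 8.98% of all genes there. A pair of GAAA with 2 bases of any kind between them, a core of interferon response elements searched on both strands, were in 12 of 18 promoters of the list (66.7%), in 8.66% of promoters of lower genes, in 2.81% of those of higher genes and in 3.61% of all. The Isg15 promoter is shown as the member with 3 overlapping matches, in capitals, in the 120 bases before the start (chr4:156200819-156200938, minus strand).
Isg15: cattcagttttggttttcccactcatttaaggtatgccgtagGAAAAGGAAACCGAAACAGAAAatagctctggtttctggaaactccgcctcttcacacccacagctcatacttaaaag

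Some genes of metal binding and heat stress were higher. Mt1 (761 against 25.8 CPM) and Mt2, which bind zinc and copper, and the zinc transporter Slc39a6 (59.1 against 29.0 CPM) were higher among 4 tested genes of that list, beside 16.5% of all genes. Slc39a6 lay at the 2-fold limit, though, and the count was 2 under TMM. Meanwhile 0 of 10 tested redox genes passed 2-fold. Of 18 tested heat shock chaperones 6 were higher and 1 lower, beside 16.5% and 7.56% of all genes. Hspa1a (128 against 0 CPM) and Hspa1b (105 against 0 CPM), the inducible HSP70 pair on chromosome 17, were at least 1099-fold and 896-fold higher against the limit of 3 UMIs. They were unevenly spread: 445 of 3251 IL-2 cells (13.7%, 12.5% to 14.9%) had a UMI of either, and 168 cells with at least 5 UMIs held 79.4% of these UMIs. Without cytokine 0 of 6112 cells had one, which allows a share of up to 0.0491% of cells with a UMI and sets no limit on the share that express the genes. When the 445 cells were left out, 1001 of 6031 tested genes were higher and 420 lower. Hspa1a and Hspa1b were then at 0 in both libraries by that choice, and so were no longer tested. Of the 16 chaperones still tested 3 were higher. Hsp90ab1 was at 3163 and 1297 CPM, and Hspa8, the constitutive HSP70, stayed within 2-fold at 1796 and 1481 CPM.

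In the list of AP-1, early and ERK feedback genes 5 of 11 tested members were higher, 1 was lower and 5 were within 2-fold, beside 16.5% higher and 7.56% lower among all genes. Dusp5 (81.2 against 8.69 CPM) and Dusp6 (70.4 against 8.57 CPM), phosphatases that restrain ERK, were higher with IL-2 together with Fosl2, Jun (99.0 against 32.6 CPM) and Ier3 (47.5 against 15.6 CPM). Dusp10 was lower (8.40 against 22.3 CPM). The median of the 11 tested members of the list, 0.03, changed sign under TMM. Among the cyclin, CDK and inhibitor genes Cdk6 (170.99 against 27.3 CPM) and Rb1 (58.6 against 15.3 CPM) were higher besides Cdkn1a, and Ccnd2 (321 against 550.1 CPM) and Cdkn1b (203 against 197 CPM) were within 2-fold. Most clustered histone genes share sequence with near-identical copies, and 13 of 18 tested were higher, beside 16.5% of all genes. In cells with neither a Mki67 nor a Top2a UMI 3 of 9 were higher, beside 13.7% of all genes there.

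The same contrast on day 3, from 2 other libraries, was smaller. Of 6027 genes tested there 388 (6.44%) were at least 2-fold higher with IL-2 and 163 (2.7%) lower, 9.14% in either direction. The genes higher on both days numbered 224, which is 22.6% of the day 5 list and 57.7% of the day 3 list, and 87 were lower on both days, 19.1% and 53.4% of the lists. Opposite calls were rare, with 10 genes higher on day 5 and lower on day 3 and 8 the reverse. The stable members included Cish (147 and 8.27 CPM on day 3), Tnfrsf4 (499 and 40.4 CPM), Bcl2 (557 and 84.0 CPM), Asns (147 and 17.9 CPM) and Tcf7 (50.5 and 255.9 CPM). The amino acid and ATF4 list was higher on day 3 in 18 of 24 tested genes, with a median of 1.58, close to the 1.71 of day 5. In the hypoxia list 13 genes were higher on day 3, with a median of 1.35. Glycolysis had 8 genes higher and a median of 0.86, and cholesterol synthesis 1 gene and 0.36. The interferon list had 11 of 21 lower on day 3 and a median of -1.21. On day 3, 62.9% of IL-2 cells and 50.6% of cells without cytokine were in the cycling class, and 0 of 48 tested G2 and mitosis genes passed 2-fold. Ribosome biogenesis had the opposite sign on day 3, with 10 of 32 tested genes higher, 0 lower and a median of 0.88. The S100, galectin and annexin list had 0 higher and 5 of 15 lower on day 3, with a median of -0.46 against 0.85 on day 5. The cytotoxic list had 1 of 10 higher and 1 lower, with a median of -0.29 against 1.30. Without cytokine Aldoa stood at 2380.2 CPM on day 3 and 419 on day 5, and with IL-2 at 3439.6 and 4381 CPM.

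The other day 5 cytokine libraries share the library without cytokine as their control, so levels are set side by side and no overlap of differences is given. At 5 IU/mL IL-2, Gzmb was at 272 CPM, between the 47.2 CPM without cytokine and the 1689 CPM at 50 IU/mL. Under IL-2v its level was 526 CPM at 5 IU/mL and 1938 CPM at 50 IU/mL, and under IL-15 128 and 462 CPM. Aldoa reached 904 CPM at the low IL-2 dose. The IL-2v libraries had 2459 and 3553 CPM of it and the IL-15 libraries 430.2 and 1839 CPM. The 4381 CPM of 50 IU/mL IL-2 was the highest Aldoa level of the 21 libraries. Bnip3 (568 CPM, against 10.2 to 254 CPM in the other day 5 libraries) and P4ha2 (90.9 CPM, against 0.545 to 44.9 CPM) were also highest of all libraries with 50 IU/mL IL-2 on day 5. The metallothionein Mt2 was at 288 CPM, while the other cytokine libraries of day 5 had 8.19 to 30.1 CPM. Scd1 (91.1 CPM) was higher with 50 IU/mL IL-2v (107 CPM), as were Il2ra (330.3 and 430.0 CPM), Cish (97.3 and 121 CPM), and Slc7a5 (76.2 and 235 CPM). Nolc1 was lowest of the 21 libraries with 50 IU/mL IL-2 on day 5, at 17.6 CPM, and stood at 133 CPM with 50 IU/mL IL-2v. Ccl5 was highest of all libraries without cytokine on day 5 (1482 CPM), and 885 CPM in naive cells. The low IL-2 dose had 505 CPM of Ccl5. Its level was 199 and 75.04 CPM under IL-2v at 5 and 50 IU/mL and 602 and 271 CPM under IL-15, and the lowest of all libraries was 57.9 CPM, at 50 IU/mL IL-2. Ltb, Cxcr3, Id3 and Ifi47 were likewise highest of all libraries without cytokine on day 5. The cycling share was 12.1% at the low IL-2 dose. It was 34.3% and 59.9% under IL-2v and 14.8% and 20.1% under IL-15, at 5 and 50 IU/mL. By day 10 with 50 IU/mL IL-2, Gzmb had reached 7618 CPM and Ifitm1 4950.0 CPM, Tcf7 was at 2.38 CPM and the cycling share was 8.23%.

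**Figure D5:**
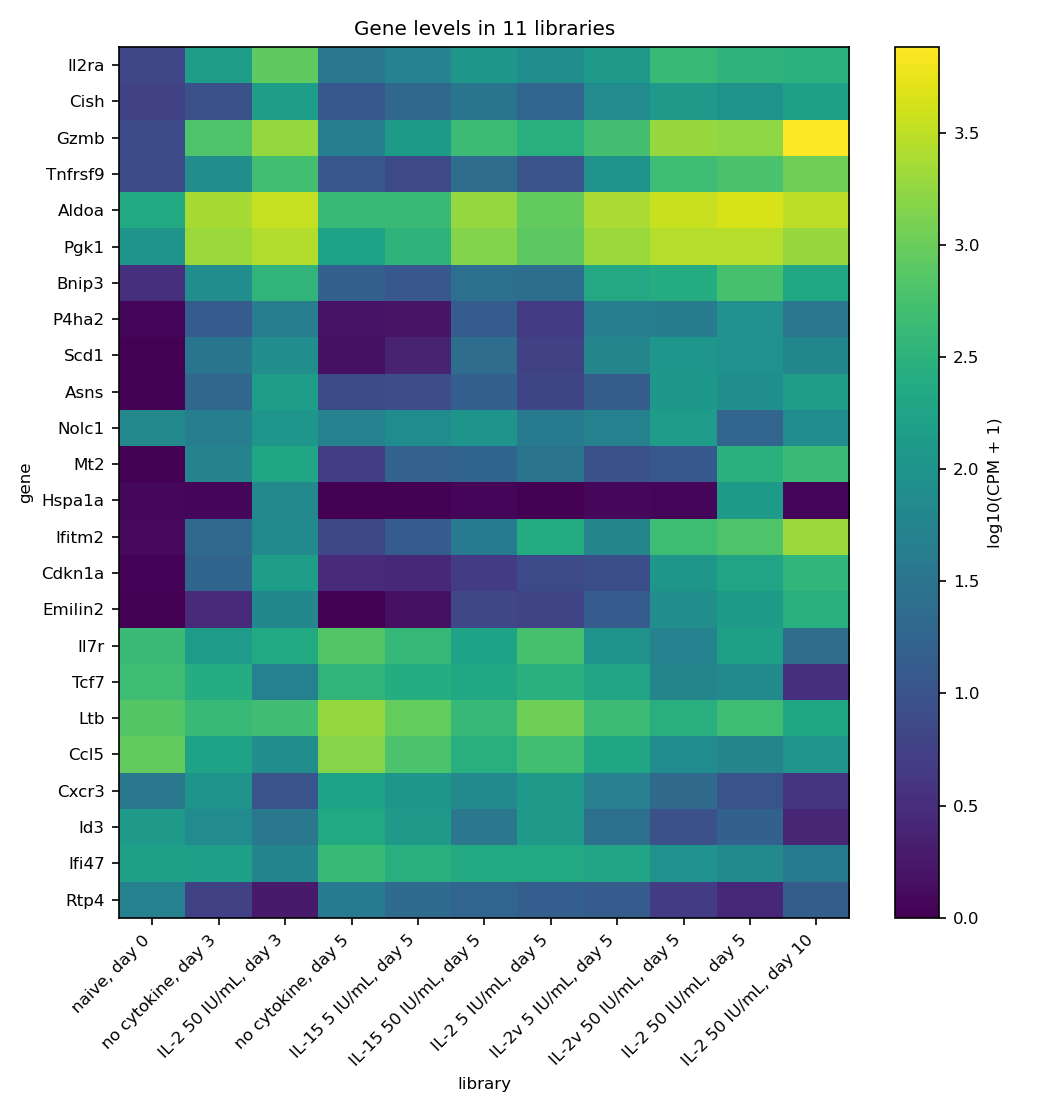
Level of 24 genes (rows) in 11 libraries (columns, naive cells, days 3, 5 and 10), coloured by log10(CPM + 1). The column of 50 IU/mL IL-2 on day 5 is brightest for Aldoa, Bnip3 and P4ha2, and the column without cytokine on day 5 is brightest for Ltb, Ccl5, Cxcr3, Id3 and Ifi47.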

How the data were processed

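RNA of single cells was measured in 21 libraries, of which the 2 of day 5 with 50 IU/mL IL-2 and without cytokine are the main comparison. The authors deposited UMI counts per gene and cell, per the file contents whole numbers of 1002 to 13407 per cell. Cell Ranger, Seurat 4.0.1 and 3.0.2 and the build mm10 are named in the submitters' processing notes, without their roles. Doublet removal is not given in the sources used here. The tables held 0 further columns of samples.

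Groups came from titles. All cells were used. Counts were summed per library and scaled to CPM, and log2(CPM + 1) values were subtracted for genes of at least 20 CPM in either library. CPM received exact Poisson and shares exact Clopper-Pearson 95% intervals, after thinning to 2000 UMIs. Genes were named by rule: the 12 highest and 12 lowest among those of at least 100 CPM, and up to 6 members of a list, of 38 lists. Some lists are given by counts alone. Further members, Malat1 and Hif1a were named after their values were seen. The comparison and the lists were chosen with earlier results of these data known. Positions are from GENCODE vM21 (GRCm38), which matched 960 of 961 genes looked up, and promoters from RefSeq (GRCm38.p6). Scripts used Python 3.11.15, numpy 2.4.6, scipy 1.17.1 and edgeR 4.0.16 for TMM only, and the counting of differences was tested on simulated data. Results for some items are not reported here.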

Additional observations from a re-analysis of the deposited data

Results flagged for a closer look

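Among the genes of the lists, 12 had a difference between IL-2 and no cytokine of at least 2-fold in opposite directions on days 5 and 3. With 1 library per condition the difference between the days was not tested. TMM shifts the differences of a day by nearly the same small amount, so it could not change the signs of these 12. Under it S100a6 on day 5 (0.93) and Bop1 (0.91) and Ppan (0.95) on day 3 were short of 2-fold. The lower ribosome biogenesis genes of day 5, 7 in all, numbered 3 without the cells that had an Hspa1a or Hspa1b UMI. The median of that list was -0.48 without those cells and -0.54 with them. With a pseudocount of 10 CPM 1 was lower. Over all genes 10 were higher on day 5 and lower on day 3 and 8 the reverse. Of the listed genes, the 6 that were higher on day 5 were Gzma (log2 difference 2.87 on day 5 and -2.23 on day 3), the calcium-binding proteins S100a4 (1.29 and -1.87) and S100a6 (1.08 and -1.41) and the histones Hist1h2ap (3.66 and -2.57), Hist1h2ae (3.14 and -1.34) and Hist1h4h (1.40 and -1.23). Hist1h2ap was at 395 CPM with IL-2 and 30.3 without on day 5, and at 296 and 1758 CPM on day 3. The 6 listed genes that were lower on day 5 were Nolc1 (-1.50 and 1.24), Bop1 (-1.46 and 1.05), Ppan (-1.13 and 1.09), Gnl3 (-1.03 and 1.40) and Ddx21 (-1.01 and 1.56), all of ribosome biogenesis, and Aen (-1.10 and 1.46), an exonuclease. Ddx21 was at 296 CPM with IL-2 and 99.4 without on day 3. Reads of the histone genes may be split among near-identical copies.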

How the results depend on the processing

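No paired analysis was possible because each condition had 1 library. The number of genes tested also changed with some settings. The 992 higher genes of 6022 tested became 2022 of 14580 with no expression filter and 567 of 3167 at a limit of 50 CPM. The 455 lower genes became 736 of 7374 with totals without ribosomal protein and mitochondrial genes and 259 of 6022 with a pseudocount of 10 CPM. They became 913 of 14580 with no filter and 241 of 3167 at 50 CPM. TMM gave 55.2% higher among the genes past 2-fold, against 68.6%. All of its 816 higher genes were among the 992, which follows from TMM lowering the differences. The cycling share with IL-2 was 35.4% after thinning to 1000 UMIs, 50.4% with no thinning and 69.0% by at least 3 UMIs of the G2 and mitosis list, and without cytokine 4.74%, 13.8% and 48.3%. The other 18 values of these 4 results stayed within 1.5 times or within their interval. Of the counts of higher or lower members per list, under the alternatives 75 moved by more than 1.5 times and 685 did not, and of the log2 differences of the named genes 68 moved and 172 did not. No named gene changed sign, but they were chosen as the largest differences of these 2 libraries, so a change of sign was unlikely. Medians changed sign under some alternatives for other cytokine receptors, homing, AP-1, mitochondrially encoded, unfolded protein response and p53 genes. With 1 library per condition, differences between cultures cannot be told apart from those between cytokine conditions.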

Other observations

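Reads of Hspa1a and Hspa1b were seen in the 50 IU/mL IL-2 libraries of days 3 and 5 and hardly elsewhere. Their summed level was 118 CPM on day 3 (288 of 3471 cells with a UMI) and 233 CPM on day 5, against 0 to 2.56 CPM in the other 19 libraries, among them 0.293 CPM with 50 IU/mL IL-2 on day 10. The highest cell of the day 5 library held 69 of these UMIs.

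Of the 13 mitochondrially encoded genes, mt-Nd6, which lies on the opposite strand to the other protein genes, was the single one past 2-fold, at 254 CPM with IL-2 and 31.6 without. The log2 differences of the other 12 ran from 0.63 for mt-Nd5 (666 against 429 CPM) to -0.91 for mt-Co3 (3386 against 6367 CPM). Under TMM 4 of the 13 were lower.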
